A study of Mus musculus with 9 samples.

Results

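Transcripts of 40 genes of mitosis were followed in bone of young and aged mice. They were taken by name from the deposited gene table as a fixed list of mitotic kinase, spindle and kinetochore genes, and 40 of the 40 were found among its 56980 genes and passed the filter on low counts. They were sorted by role into 7 groups: mitotic entry, mitotic kinases with the chromosomal passenger complex, spindle checkpoint and anaphase, centromere and kinetochore, spindle motors and microtubule proteins, central spindle and cytokinesis, and mitotic chromosomes. Bulk RNA libraries came from 4 young mice (3 months old) and 5 aged mice (20 months old), all wild type C57BL/6, stated to be female and given no treatment other than ageing. The tissue is labelled bone marrow, while the RNA was extracted from homogenised trabecular bone. The series concerns sensory nerves and netrin-4 in aged bone.

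A cell enters mitosis when cyclin-dependent kinase 1, bound to A- and B-type cyclins, becomes active. Polo and Aurora kinases then build the spindle, kinetochores attach chromosomes to its microtubules, and a checkpoint holds back anaphase until every chromosome is attached. Most of these genes are transcribed in the G2 and M phases of the cell cycle, so their transcripts mark dividing cells, and in marrow red cell, granulocyte and B cell precursors divide most. In bulk tissue, fewer dividing cells and less RNA per cell cannot be told apart.

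The promoters of many such genes share a pair of sequence elements, the cell cycle genes homology region (CHR), to which repressor and activator complexes of the cell cycle bind, and CCAAT boxes, bound by the factor NF-Y. RefSeq promoter windows of 300 bases (250 before the start site and 50 from it, build GRCm38.p6) were matched for 32 of the 40 genes. The CHR was searched as TTTGAA or TTTAAA and the CCAAT box as CCAAT, both on either strand, and 0 matches to one overlapped a match to the other in these windows. Shown are the promoters of 7 genes whose levels are described below, 170 bases before and 30 from the start site, with matches in capitals. They lie in GRCm38.p6 with Cdk1 at chr10:69352883-69353082 on the minus strand, Ccnf at chr17:24251380-24251579 on the minus strand, Cdc20 at chr4:118437314-118437513 on the minus strand, Ube2c at chr2:164769759-164769958 on the plus strand, Cenpf at chr1:189688057-189688256 on the minus strand, Kif11 at chr19:37376212-37376411 on the plus strand and Birc5 at chr11:117849067-117849266 on the plus strand.
Cdk1: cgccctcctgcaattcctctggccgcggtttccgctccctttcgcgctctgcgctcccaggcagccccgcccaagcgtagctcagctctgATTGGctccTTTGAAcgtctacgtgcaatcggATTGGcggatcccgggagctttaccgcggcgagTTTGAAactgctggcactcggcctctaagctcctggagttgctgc
Ccnf: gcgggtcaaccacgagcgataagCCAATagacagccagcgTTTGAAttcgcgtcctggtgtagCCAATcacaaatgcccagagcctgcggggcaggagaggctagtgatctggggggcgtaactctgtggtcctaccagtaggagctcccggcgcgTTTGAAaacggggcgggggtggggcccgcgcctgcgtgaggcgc
Cdc20: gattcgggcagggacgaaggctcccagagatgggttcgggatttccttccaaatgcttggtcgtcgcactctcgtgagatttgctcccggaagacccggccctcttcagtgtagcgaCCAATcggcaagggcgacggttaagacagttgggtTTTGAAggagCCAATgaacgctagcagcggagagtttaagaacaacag
Ube2c: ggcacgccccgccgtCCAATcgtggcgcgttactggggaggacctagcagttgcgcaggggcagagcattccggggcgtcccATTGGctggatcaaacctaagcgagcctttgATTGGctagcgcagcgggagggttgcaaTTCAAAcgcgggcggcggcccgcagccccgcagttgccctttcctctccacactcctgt
Cenpf: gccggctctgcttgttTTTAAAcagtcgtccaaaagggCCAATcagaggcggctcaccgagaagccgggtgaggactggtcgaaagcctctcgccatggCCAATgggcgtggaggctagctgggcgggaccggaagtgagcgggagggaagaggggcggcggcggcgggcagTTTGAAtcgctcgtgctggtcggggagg
Kif11: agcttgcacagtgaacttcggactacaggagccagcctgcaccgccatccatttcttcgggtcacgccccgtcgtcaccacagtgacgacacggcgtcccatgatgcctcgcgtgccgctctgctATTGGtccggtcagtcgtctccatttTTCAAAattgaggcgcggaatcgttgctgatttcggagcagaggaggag
Birc5: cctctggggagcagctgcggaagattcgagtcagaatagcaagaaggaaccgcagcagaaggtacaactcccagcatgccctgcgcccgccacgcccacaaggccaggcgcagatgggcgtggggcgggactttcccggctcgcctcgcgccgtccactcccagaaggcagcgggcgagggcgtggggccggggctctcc

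A CHR match stood in 28 of the 32 windows (87.5%), against 27.8% of the 27025 genes with a window. Within 50 bases of the start site it stood in 25 (78.1%), against 8.24% of all windows. At least 2 CCAAT boxes stood in 17 (53.1%), against 12.2%, and 15 windows (46.9%) held at least 2 CCAAT boxes and a CHR within 50 bases of the start, against 1.02%. In the sequences above, Cdk1, Ccnf, Cdc20, Ube2c and Cenpf each showed at least 1 CHR and 2 CCAAT boxes, and Kif11 showed 1 of each. The printed stretch of Birc5 held neither, and its only match was a CHR farther upstream. These matches describe letters and show no binding.

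**Figure D1:**
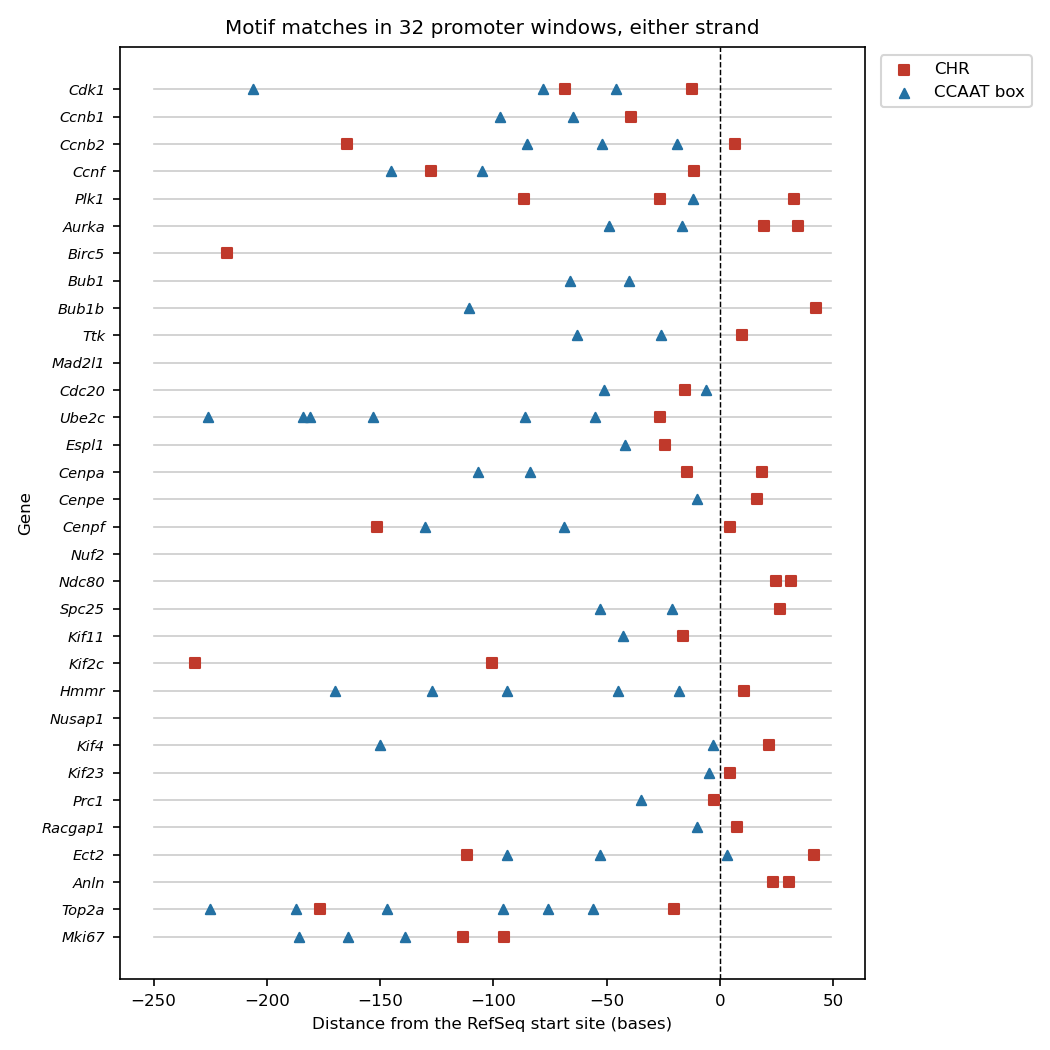
Positions of CHR (squares) and CCAAT box (triangles) matches in the 32 promoter windows, with distance in bases from the RefSeq start site on the horizontal axis and genes in rows. In 25 of the 32 rows a square lies within 50 bases of the dashed start line.

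Young 4, aged 3 and aged 4 are shown apart from the other 6 libraries. Their ribosomal protein share of counts was 6.13% to 7.30%, against 3.17% to 3.43% elsewhere. The libraries held 19804883 to 23548594 estimated counts, and a mitotic gene had 233 to 47357 of them in a library. Transcripts of the sex chromosomes went against the stated sex in 5 libraries: Xist, from the inactive X chromosome, had 7909 to 21724 counts in aged 1 to 4 and 1 to 9 in aged 5 and the young libraries, whereas the Y-linked Ddx3y had 0 in aged 1 to 4 and 888 to 1721 in the others. For aged 1 to 4 against young libraries, age and sex cannot be told apart. Markers of marrow cells and of bone cells were both present, with 0 marker genes at 0 counts in all libraries.

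All mitotic genes of the list had lower fitted levels in aged than in young bone, by a median log2 fold change of −0.41, against 0.03 over all 16576 genes tested. All 40 were below 0, as were 46.5% of all genes. That count was 36 without young 4, 37 without aged 1 or aged 2, 39 without aged 5 and 40 without any other single library. The quasi-likelihood test of edgeR called 0 of the 40 at an adjusted p under 0.05 (0% of all genes were called lower), with a smallest adjusted p of 0.299. Limma-voom also called 0. DESeq2 called 2 lower, Ccnf by −0.54 and Cenpf by −0.80 (1.06% of the 15888 genes it gave an adjusted p were called lower). At an unadjusted p under 0.05, 15 of the 40 were lower (4.64% of all genes) and 0 higher (4.15%). The log2 fold changes in the authors' deposited table were also below 0 for 40 of the 40 genes, and 0 had an adjusted p under 0.05 there.

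With the 3 libraries that stand apart given their own term in the fit, the median was −0.44 and edgeR called 2 genes lower, Ube2c and Birc5 (1.31% of all genes were called lower, and 0.615% higher). All 40 were below 0 (48.9% of all genes). An unadjusted p under 0.05 was reached by 33 of the 40, against 10.2% of all genes called lower in that way. The 2 calls lay near the threshold, with adjusted p of 0.0405 and 0.0455. They were 0 without any of young 1 to 4 or aged 1, 2 or 4. The count was 23 without aged 3, where 1054 of all 16480 genes were called lower. It was 13 without aged 5, where 395 of all 16341 genes were. The 6 other libraries alone gave a median of −0.50, 40 of 40 genes below 0 (46.7% of all genes), 0 calls by edgeR in either direction (smallest adjusted p 0.0694, with 0% of all genes called lower and 0.012% higher), and an unadjusted p under 0.05 for 38 of 40 genes (11.9% of all genes were lower in that way).

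**Figure D2:**
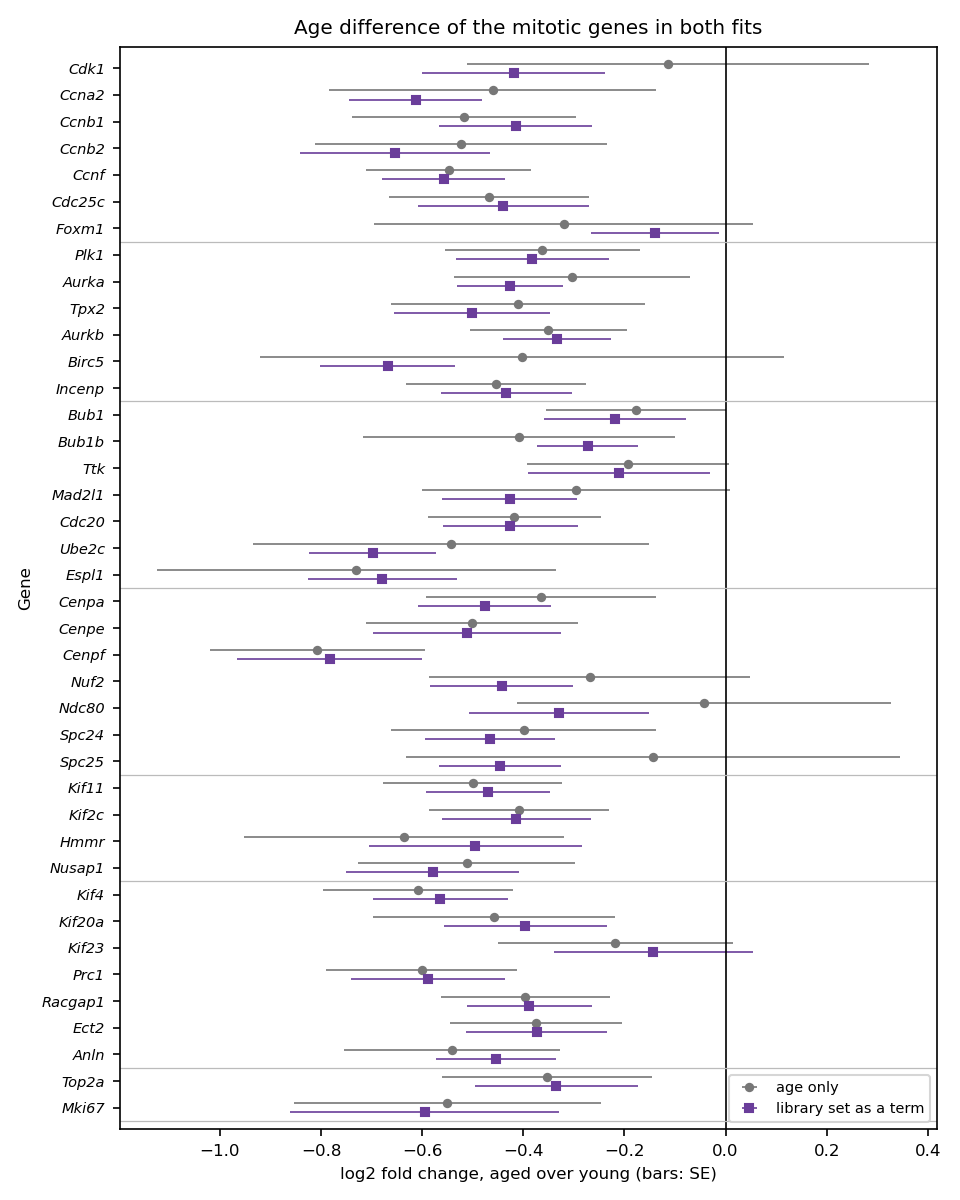
Log2 fold change (aged over young) of each gene with its standard error, from the fits without (circles) and with (squares) a term for library set, with grey lines between the role groups. All 80 points lie below 0, from −0.81 for Cenpf to −0.04 for Ndc80 with age only, and the bar of Birc5 shrinks from 0.52 to 0.13.

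Library by library, the difference was clearest among the 6 libraries that resembled each other. In aged 1 and aged 2, 40 of the 40 genes lay below every one of young 1 to 3, as did 24.1% of all genes. Aged 5 lay between: it was above aged 1 and aged 2 for 40 of 40 genes (34.4% of all genes) and below each of young 1 to 3 for 35 (31.7% of all genes). The median difference from young 1 to 3 was −0.65 on the log2 scale for aged 1 and aged 2 and −0.25 for aged 5, the only aged library with Y-linked transcripts, against 0.00 and 0.01 over all genes. With 1 library, the latter value has no replicate check. In deposited TPM (transcript levels scaled by length), aged 5 was above aged 1 and aged 2 for 23 of 40 genes only.

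Young 1 to 3 were close to each other. The coefficient of variation over these 3 had a median of 4.44% over the mitotic genes, from 0.608% for Hmmr to 12.7% for Cdc25c. Over all genes, which were not matched to them for count, its median was 9.45%. Over all 4 young libraries the median of the mitotic genes was 14.6% (27.7% over all genes), and over the 5 aged libraries 26.4% (39.5%). Over aged 1, 2 and 5 it was 17.4%, against 17.3% over all genes. Across the 9 libraries, 5 genes had every aged value under every young value (2.76% of all genes) and 0 the reverse (1.67%): Ccnf, Incenp, Cenpf, Prc1 and Racgap1. That count was 0 with scaling by library totals and 1 in TPM. Within the 6 libraries it was 35 (16.6% of all genes), 32 with library totals and 23 in TPM, and the 5 genes that overlapped were Cdc25c, Plk1, Aurkb, Cdc20 and Kif2c.

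**Figure D3:**
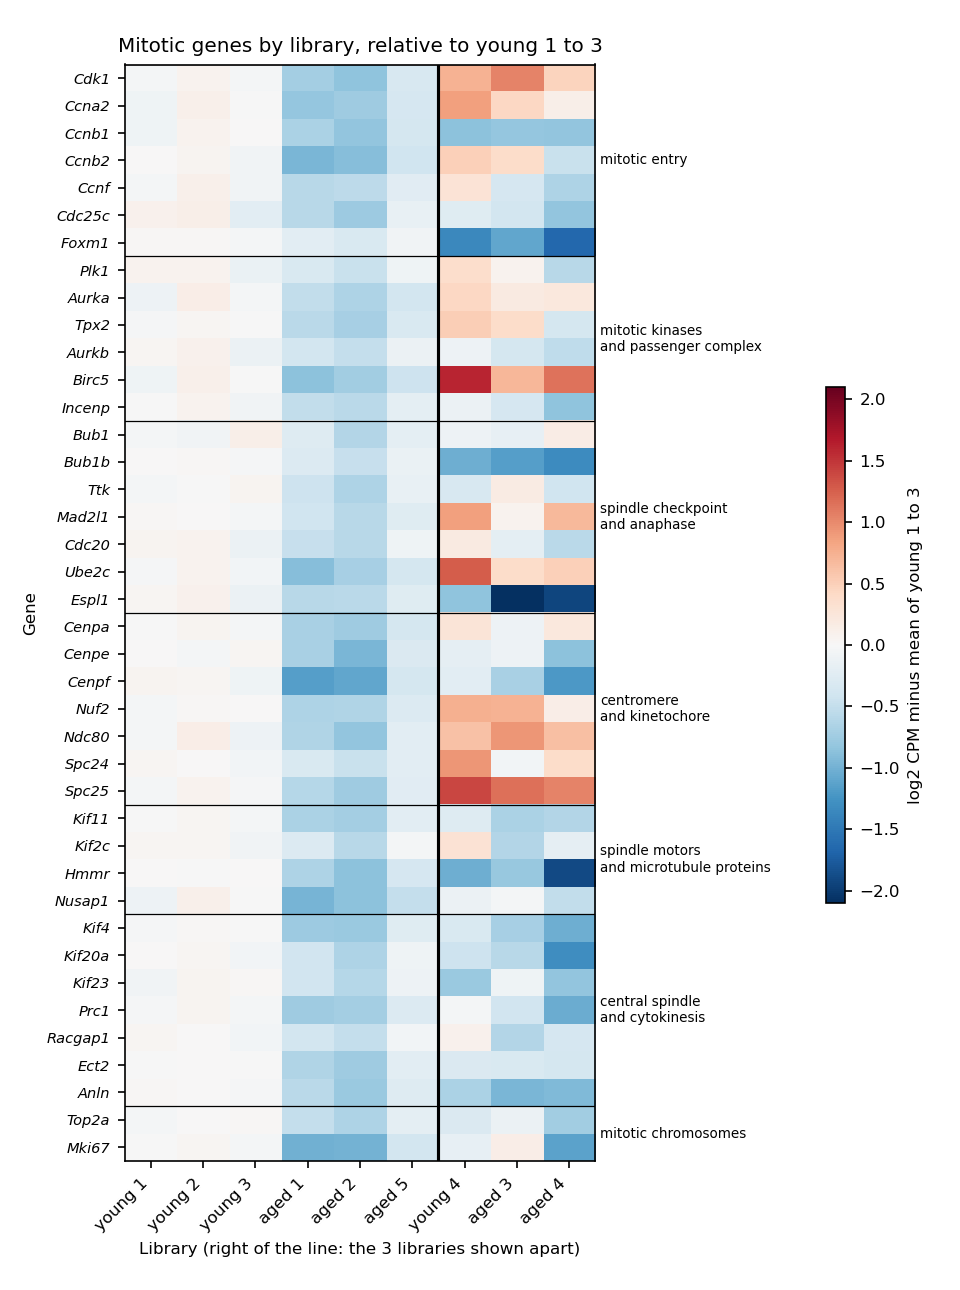
Log2 level (CPM) of each gene in each library minus its mean in young 1 to 3, with genes in rows by role and libraries in columns, and young 4, aged 3 and aged 4 right of the line. Aged 1 and aged 2 are below 0 in all rows, aged 5 is paler, and the 3 libraries on the right hold rows well above 0 (Birc5, Spc25) and well below it (Espl1, Foxm1).

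Levels below are CPM, counts scaled to a common depth by trimmed mean of M values (TMM). Among genes of mitotic entry, cyclin F (Ccnf, ENSMUSG00000072082), a cyclin that marks proteins for destruction, separated the ages in all libraries. It was at 109, 120.1, 107 and 137 CPM in young 1 to 4 and at 74.3, 76.4, 87.8, 71.3 and 94.5 in aged 1 to 5. The means were 118 ± 13.8 (SD, n = 4) and 80.9 ± 9.83 (SD, n = 5), with a log2 fold change of −0.55 (SE 0.16, edgeR adjusted p = 0.342, and 0.0535 with library set fitted). For the 7 genes of mitotic entry the median log2 fold change was −0.47, with 3 lower at an unadjusted p under 0.05 (4.64% of all genes). The lowest young library of Ccnf was above the highest aged library, at 107 against 94.5.

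Cdk1 (ENSMUSG00000019942), the kinase that drives entry into mitosis, did not separate them. It was at 117, 127, 118 and 199 CPM in young 1 to 4 and at 73.2, 67.1, 247, 166 and 95.8 in aged 1 to 5. Aged 3 had the highest level of all, and young 4 the highest of the young. The log2 fold change was −0.11 (SE 0.40) with age only and −0.42 (SE 0.18) with library set fitted (edgeR adjusted p of 1.00 and 0.250), and it was above 0 without young 4, aged 1 or aged 2, by 0.10, 0.04 and 0.05. Among the 6 libraries, aged 1, 2 and 5 all lay below young 1 to 3.

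Foxm1 (ENSMUSG00000001517), a transcription factor that activates many mitotic genes, differed more between library sets than with age. It was at 90.7, 90.8, 86.3 and 35.0 CPM in young 1 to 4 and at 76.2, 71.8, 41.8, 28.5 and 85.0 in aged 1 to 5. Its log2 fold change was −0.14 with library set fitted, the value nearest to 0 among the 40 (SE 0.13, edgeR adjusted p = 0.633). The low libraries were young 4, aged 3 and aged 4, and aged 3 lay above young 4. In the other 6 the aged values were all below the young ones, by as little as 85.0 to 86.3.

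The cyclins differed in the 3 libraries apart. Ccnb1, a B-type cyclin gene, was at 158 to 177 CPM in young 1 to 3 and 94.2 to 130 in aged 1, 2 and 5, but at 91.9 in young 4 and 95.6 and 94.6 in aged 3 and 4. Ccnb2, the other B-type cyclin gene of the list, was at 221 in young 4, above 205 and 113 in aged 3 and 4. The A-type cyclin gene Ccna2 was at 555 in young 4 and 411 and 333 in aged 3 and 4 (log2 fold change −0.61 with library set fitted, edgeR adjusted p = 0.0503). Cdc25c, a phosphatase gene that activates Cdk1, had a young mean of 20.6 ± 2.87 CPM (SD, n = 4) and an aged mean of 14.9 ± 2.92 CPM (SD, n = 5).

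**Figure D4:**
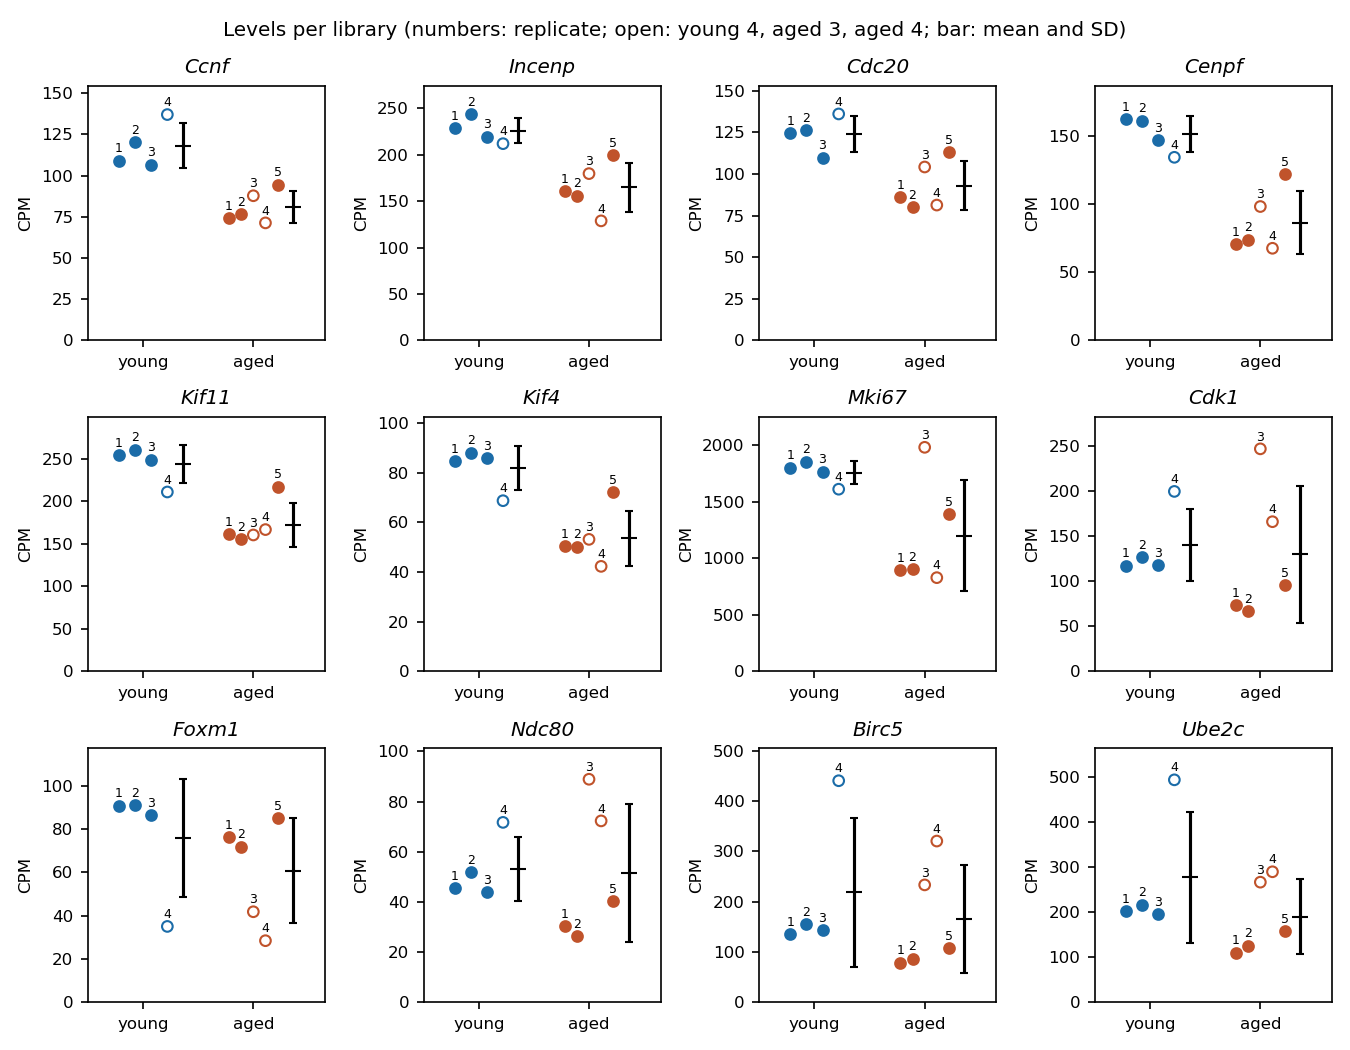
CPM in every library of the genes given with all their values, with the group on the horizontal axis, replicate numbers beside the points, open points for young 4, aged 3 and aged 4, and the mean and SD at the right of each group. Filled aged points lie below filled young points for all but Cdc20, whose aged 5 value of 113 lies above young 3 at 109.8, and the open points lie far off for Cdk1, Foxm1, Ndc80, Birc5 and Ube2c.

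Among the mitotic kinases and the passenger complex, Incenp (ENSMUSG00000024660), the scaffold of the complex, had groups that did not overlap. It was at 229, 244, 219.6 and 212 CPM in young 1 to 4 and at 161, 156, 179.8, 129 and 199.7 in aged 1 to 5. The log2 fold change was −0.45 (SE 0.18, edgeR adjusted p = 0.483). Aged 5 came nearest to the young libraries. The 6 genes of this group had a median of −0.38, with 2 lower at an unadjusted p under 0.05 (4.64% of all genes). Its partners were Aurkb, the kinase of the complex, with a log2 fold change of −0.35 (SE 0.15), and Birc5 (ENSMUSG00000017716), which encodes survivin.

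Birc5 was at 136, 155, 144 and 440.1 CPM in young 1 to 4 and at 79.2, 86.9, 233, 320.4 and 107 in aged 1 to 5. Within each set every aged library was below every young library, but between sets aged 3 and 4 were above young 1 to 3. With age only its log2 fold change was −0.40 with a standard error of 0.52, and with library set fitted it fell by 0.67 (SE 0.13, adjusted p = 0.0455 in edgeR). Aurka, the kinase of spindle poles, had −0.30 with age only and −0.43 with library set fitted. Tpx2, which activates it, had −0.41 and −0.50, and the Polo-like kinase gene Plk1 −0.36 and −0.38.

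In the group of spindle checkpoint and anaphase, Cdc20 (ENSMUSG00000006398), an activator of the anaphase-promoting complex, was at 125, 126, 109.8 and 136 CPM in young 1 to 4. In aged 1 to 5 it was at 86.2, 80.1, 104, 81.3 and 113. Only aged 5 overlapped the young range, and the log2 fold change was −0.42 (SE 0.17, edgeR adjusted p = 0.511). Ube2c (ENSMUSG00000001403), the ubiquitin-conjugating enzyme of that complex, was at 202, 216, 196 and 493 in young 1 to 4 and at 110.0, 126, 266, 289 and 158 in aged 1 to 5. As with Birc5, the ages separated within each set and overlapped across sets. With the library set fitted, Ube2c fell by 0.70 in log2 terms (SE 0.13, adjusted p = 0.0405 in edgeR).

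The 7 genes of this group had a median of −0.41 with age only, with 1 lower at an unadjusted p under 0.05 (4.64% of all genes). With library set fitted the log2 fold change was −0.22 for Bub1 and −0.27 for Bub1b, which encode checkpoint kinases of the Bub family (BubR1 for Bub1b). It was −0.21 for Ttk, the gene of the kinase Mps1, and −0.43 for Mad2l1, the gene of the inhibitor of Cdc20. Espl1, which encodes separase, the protease that cuts cohesin at anaphase, had −0.68 (SE 0.15, edgeR adjusted p = 0.0521). Espl1 was at 91.0 to 105 CPM in young 1 to 3, 66.6 to 82.9 in aged 1, 2 and 5, 55.4 in young 4 and 23.4 and 26.2 in aged 3 and 4.

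At the centromere and kinetochore, Cenpf (ENSMUSG00000026605), a large protein of the outer kinetochore, had the lowest log2 fold change of the list. It was at 163, 161, 147 and 134 CPM in young 1 to 4 and at 70.5, 74.0, 98.3, 67.6 and 122 in aged 1 to 5. The means were 151 ± 13.3 (SD, n = 4) and 86.5 ± 23.3 (SD, n = 5). The log2 fold change was −0.81 (SE 0.21, edgeR adjusted p = 0.299, and 0.0639 with library set fitted). The 7 genes of this group had a median of −0.37, with 2 lower at an unadjusted p under 0.05 (4.64% of all genes). The ages did not overlap for Cenpf, and aged 5 was again the highest of the aged.

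Ndc80 (ENSMUSG00000024056), the microtubule-binding subunit of the complex of that name, had the value nearest to 0 with age only. It was at 45.5, 51.8, 43.8 and 71.7 CPM in young 1 to 4 and at 30.3, 26.5, 88.9, 72.3 and 40.3 in aged 1 to 5. Aged 3 was above young 4 and aged 4 level with it, unlike the order in the other 6 libraries. The log2 fold change was −0.04 (SE 0.37) with age only, −0.33 (SE 0.18) with library set fitted and −0.53 within the 6 libraries (edgeR adjusted p of 1.00, 0.365 and 0.111). Without young 4, aged 1, aged 2 or aged 5 the age-only value was above 0, at 0.13, 0.10, 0.12 and 0.04.

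The other subunits of the Ndc80 complex were nearer to each other with library set fitted, at −0.44 for Nuf2, −0.47 for Spc24 and −0.45 for Spc25. Cenpa, the histone variant that marks centromeres, had −0.48, and Cenpe, a kinesin of kinetochores, −0.51. None of these passed (edgeR adjusted p 0.0856 to 0.175).

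Among spindle motors and microtubule proteins, Kif11 (ENSMUSG00000012443), the kinesin that pushes spindle poles apart, was at 254, 261, 249 and 211 CPM in young 1 to 4. In aged 1 to 5 it was at 161.5, 155, 160.5, 167 and 217. Aged 5 stood apart from the other aged libraries and just above young 4, and the log2 fold change was −0.50 (SE 0.18, edgeR adjusted p = 0.416). The 4 genes of this group had a median of −0.51, with 3 lower at an unadjusted p under 0.05 (4.64% of all genes). Kif2c, a kinesin that shortens microtubules, had −0.41, Nusap1, which bundles spindle microtubules, −0.51, and Hmmr, a protein of the spindle, −0.64. Hmmr was at 103 to 104 CPM in young 1 to 3 and at 51.2 in young 4.

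Among genes of the central spindle and cytokinesis, Kif4 (ENSMUSG00000034311), a kinesin of chromosomes and the central spindle, was at 84.8, 88.2, 85.9 and 68.8 CPM in young 1 to 4. In aged 1 to 5 it was at 50.6, 50.3, 53.2, 42.3 and 72.2. Again aged 5 alone reached the young range, and the log2 fold change was −0.61 (SE 0.19, edgeR adjusted p = 0.344). Kif4 is X-linked, so the sex chromosome transcripts above touch it directly, and their part in its value was not tested.

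The 7 genes of this group had a median of −0.46, with 4 lower at an unadjusted p under 0.05 (4.64% of all genes). Prc1, which crosslinks the microtubules of the central spindle, was at 183 to 195 CPM in young and 91.8 to 155 in aged libraries. Racgap1, a subunit of the centralspindlin complex, was at 156.9 to 174 and 106 to 156.6, with the highest aged value just under the lowest young value. Kif23, the kinesin of that complex, had −0.22 with age only and −0.14 with library set fitted, among the smallest differences of the list. Kif20a, a kinesin of cytokinesis, had −0.46, Ect2, the activator of the small GTPase RhoA, −0.37, and Anln, the gene of the contractile ring protein anillin, −0.54 with age only.

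Of the genes of mitotic chromosomes, Mki67 (ENSMUSG00000031004), whose protein Ki-67 coats mitotic chromosomes and marks dividing cells, was at 1801, 1856, 1765 and 1611 CPM in young 1 to 4. In aged 1 to 5 it was at 898, 907, 1981, 829 and 1389. Aged 3 was above every young library while the other 4 aged libraries were below all of them. Its means were 1758 ± 105 (SD, n = 4) and 1201 ± 490 (SD, n = 5), with a log2 fold change of −0.55 (SE 0.30, edgeR adjusted p = 0.720). Top2a, which encodes the topoisomerase that untangles chromosomes, was at 484 to 606 and 358 to 547 CPM, with a log2 fold change of −0.35. Of these 2 genes, 0 had an unadjusted p under 0.05 in edgeR.

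Per length, in deposited TPM, Ube2c was the most abundant mitotic transcript, at a young mean of 333 ± 17.2 TPM (SD, n = 4) and an aged mean of 241 ± 36.5 TPM (SD, n = 5). It was followed in the young means by Birc5 at 220.1 ± 49.4, Cdk1 at 213 ± 59.5, Top2a at 203 ± 40.5 and Mki67 at 179 ± 66.2, neighbours that differed by less than their SD. The place of Birc5 rests on young 4, at 294 TPM. In young 1 to 3 it was at 193, 201 and 193 TPM, below Cdk1 (239 to 245), Top2a (218 to 230.4) and Mki67 (205 to 224). Ttk was the least abundant, at 11.1 ± 4.47 and 9.47 ± 3.05. The mean TPM level on the log2 scale was lower in aged libraries for 40 of 40 genes, with a median difference of −0.37.

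Across the 3 libraries apart, genes of the list went both ways, as genes in general did in young 4, so this was not particular to the list. Young 4 was below each of young 1 to 3 for 21 genes (43.0% of all genes) and above each for 18 (42.6%), and aged 3 was above each for 14 (41.0%). In the fit with library set fitted, 22 genes were higher and 18 lower in young 4, aged 3 and aged 4 than in the other 6 libraries, from 1.60 for Birc5 and 1.53 for Spc25 to −1.22 for Foxm1 and −1.26 for Espl1 on the log2 scale. How many were higher depended on the scaling: on mean log2 levels it was 18 with TMM, 11 with library totals and 3 in TPM. The order of the genes followed their deposited length. Spearman's rho between length and this set difference was −0.63 over the 40 genes, and −0.47 over all genes tested, whose points share these libraries. The 20 shorter genes (up to 2933 bases) had a median set difference of 0.56, and the 20 longer (from 2960 bases) −0.12.

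The age difference did not follow length in that way. The same rho was −0.06 for the log2 fold change with library set fitted, with medians of −0.43 for the shorter and −0.50 for the longer genes. Within the 3 libraries apart, aged 3 was below young 4 for 29 of 40 genes (58.0% of all genes) and aged 4 for 37 (47.7% of all genes). Both were below it for 28 (32.1% of all genes). The median difference of aged 3 and 4 from young 4 was −0.35 on the log2 scale, against −0.06 over all genes, with 1 young library and no test. A test of whether the age difference itself differed between the sets (the interaction in edgeR) called 0 of the 40 (0.0121% of all genes), with 2 at an unadjusted p under 0.05 (5.21% of all genes), Ccnb1 and Espl1, and with 1 young library in the smaller set.

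**Figure D5:**
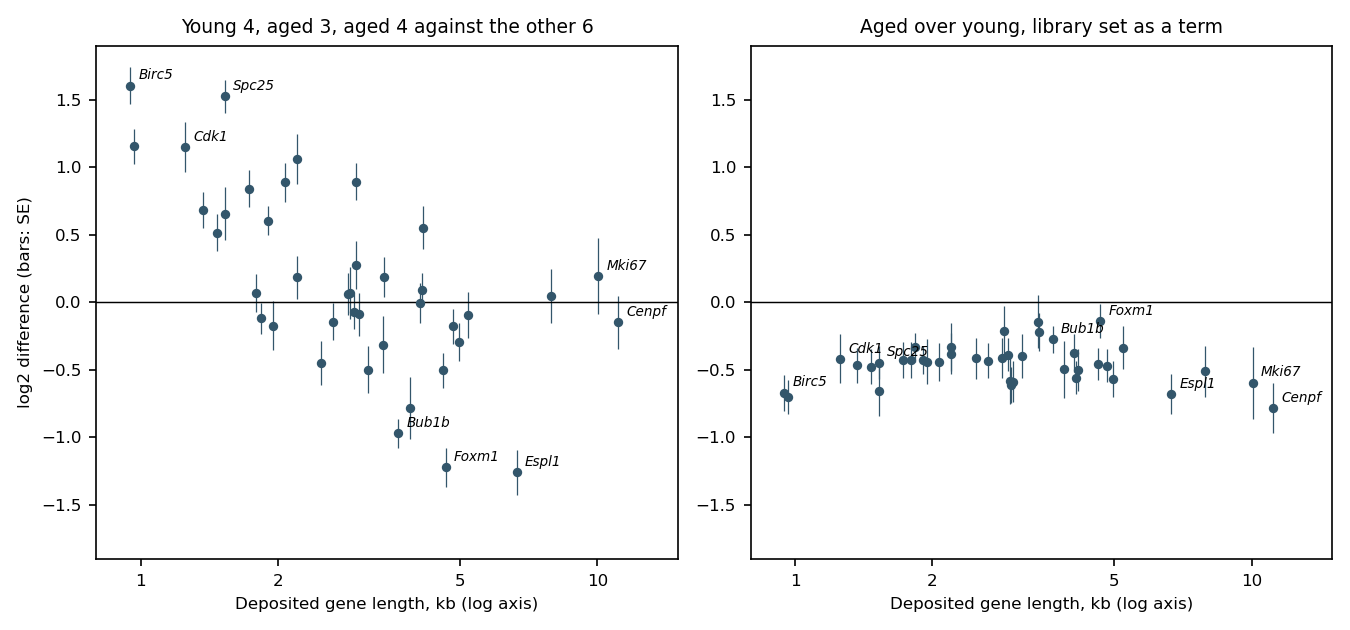
Deposited gene length (log axis, kb) of the 40 genes against their log2 difference between the 3 libraries apart and the other 6 (left) and against their log2 fold change with age in the same fit (right), with standard errors. Short genes such as Birc5 and Spc25 lie above 1.5 on the left and Espl1 and Foxm1 below −1.2, while on the right all genes lie below 0 at every length.

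Other genes of mitosis, 95 in all and chosen by role, were measured in the same way. With age only 81 were below 0 and 14 above (46.5% of all genes were below), with a median log2 fold change of −0.31. There edgeR called 0, with 17 lower at an unadjusted p under 0.05 (4.64% of all genes). With library set fitted 90 were below 0 (48.9% of all genes) and 5 above, the median was −0.34 and 6 were called lower (1.31% of all genes). At an unadjusted p under 0.05 in edgeR, 48 were lower (10.2% of all genes) and 1 was higher (1424 of all 16576 genes). The higher one was Cep55, by 0.55 (SE 0.23). All 6 calls were lost without any of young 1 to 4 or aged 1, 2 or 4, and with upper quartile scaling, where 0 of all genes were called lower. These 6, named after their values were seen, were Cdc25b, a phosphatase gene, Fzr1, an activator of the anaphase-promoting complex, and the centromere genes Cenph, Cenpk, Cenpl and Oip5. Cdc25b averaged 217 ± 24.1 CPM in young (SD, n = 4) against 92.3 ± 23.2 CPM in aged bone (SD, n = 5). With library set fitted it fell by 1.23 in log2 terms (SE 0.19, adjusted p = 0.0405 in edgeR), a call lost in those same fits, and with age only the adjusted p in edgeR was 0.255. Next by the age-only p were Fzr1 (−0.74), Cenpn (−0.51), a centromere gene, and Kifc1 (−0.53), a kinesin gene. The 15 genes of the anaphase-promoting complex, which works outside mitosis too, were the most mixed, with 9 below 0 and 6 above with age only.

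Fitted levels of red cell precursor markers were lower alongside. With age only, all 20 erythroid markers were below 0 (46.5% of all genes), with a median log2 fold change of −1.20 (0.03 over all genes). There edgeR called 0 markers in each list described here. With library set fitted it called 2 erythroid markers and 1 bone and stromal marker lower (1.31% of all genes). It called 3 plasma cell, 3 T and NK cell and 1 monocyte and macrophage marker higher (0.615% of all genes). The summed level of the erythroid markers was 10639 to 12483 CPM in young and 2147, 4618, 8631, 3332 and 6313 in aged 1 to 5. The summed level of the mitotic genes was 6940 to 7696 CPM in young and 4375, 4192, 7005, 5034 and 5813 in the same order. Aged 3 and then aged 5 were the highest aged libraries in both sums. Below them the orders differed: aged 2 came next in the erythroid sum but was lowest in the mitotic sum. Mki67 made up 1981 CPM of the mitotic sum in aged 3. By the median log2 deviation of the mitotic genes from their means, aged 5 (0.06) was above aged 3 (−0.02). The order also depended on the scaling. As a share of all counts, the mitotic genes made up 0.753% to 0.797% in young 1 to 3 and 0.541% in young 4. In aged 1 to 5 that share was 0.512%, 0.475%, 0.576%, 0.433% and 0.655%, so aged 5 was above aged 3, and both were above young 4. Hemoglobin genes took 21.8% of counts in young 4, 16.1% in aged 3 and 0.697% to 9.16% in the others. B cell progenitor markers had 13 of 14 below 0, at a summed 442 to 588 CPM in young and 120 to 772 in aged libraries, with aged 3 the highest. Early neutrophil markers had 9 of 10 above 0 (3936 to 6165 and 3632 to 12547 CPM). Plasma cell markers had 10 of 10 above 0 (390 to 719 and 497 to 1665 CPM), and monocyte and macrophage markers 8 of 10 (1556 to 1755 and 2309 to 2842 CPM). T and NK cell markers had 10 of 12 above 0 (114 to 199.9 and 147 to 282 CPM), and late neutrophil markers 5 of 10 (23141 to 53540 and 15772 to 72336 CPM). Bone and stromal markers had 10 of 10 below 0 (4075 to 8578 and 1173 to 3805 CPM). The part of these cell types in the mitotic values was not tested.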

How the data were processed

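RNA sequencing of 9 libraries was read from 1 deposited table. The estimated counts (expected counts) in the deposited table are per gene and library, are not scaled, and were rounded to whole numbers. The TPM columns in the deposited table were used only to compare levels between genes and as a further scale. The deposited log2 fold changes, fold ratios and p-values are the authors' own comparison, made with DESeq2 going by the name of the deposited table, with settings not given in the sources used here. The quantifier and annotation are not given in the sources used here. Bowtie 0.12.2 and build mm8 are named, with no role, per the submitters' processing notes. The deposited lengths were used as given.

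Counts were tested with the quasi-likelihood test in edgeR 4.0.16 (R 4.3.3) with TMM factors, filterByExpr (minimum count 10, total 15) and Benjamini-Hochberg adjustment over 16576 genes, threshold 0.05. Age was the only term, or age and the library set. Single-library log2 levels had a prior count of 2 added. Limma 3.58.1 (voom) and DESeq2 1.42.0 were alternatives, beside other scalings, filters, robust dispersions, a replicate block and each library left out. Library totals of 19804883 to 23548594 set the depth, and no pair of libraries agreed within sampling noise (smallest chi-square per gene 16.8). On counts simulated for 16576 genes, the age-only fit called 3 of 100 genes changed 2-fold, 57 of 100 changed 4-fold and 2 of 16376 unchanged. The fit with the set term called 45, 77 and 7.

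The members, lists, library set and tests were chosen with earlier results of these data known. All values per library are given for the member with the smallest age-only p in each role group, for Mki67, Cdk1 and Foxm1, and for the lowest and highest log2 fold change. Ube2c and Birc5 were added after their values were seen. Of other mitotic genes, the 4 of smallest age-only p are named, and those called and Cep55 were added after their values were seen. The interaction of age and set and the comparison of scales were also chosen after seeing the data. Promoters came from RefSeq (GRCm38.p6), 1 window per gene. Figures used Python 3.11.15, pandas 2.3.3 and matplotlib 3.10.9.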

Additional observations from a re-analysis of the deposited data

Results flagged for a closer look

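In 16 of the 80 groups formed by 40 genes and 2 ages, 1 library lay far from the rest of its group. Chance alone gives about 1 in 20 groups, and the genes share libraries, so these are not separate events. The library was young 4 in 14 of the 16. It is among the libraries shown apart, and many genes outside the list set it off too. Over all genes, it was below each of young 1 to 3 for 43.0% and above each for 42.6%. The share of all genes flagged in this way is not given here, so these flags cannot be read as particular to the list. Young 4 was far above young 1 to 3 for Cdk1 (199 CPM), Ccna2 (555), Tpx2 (269.8), Birc5 (440.1), Mad2l1 (161), Ube2c (493), Nuf2 (143), Spc24 (89.6) and Spc25 (139.9). It was far below them for Foxm1 (35.0), Bub1b (63.0), Hmmr (51.2), Ect2 (63.5) and Anln (77.1). Aged 3 was far above the other aged libraries for Tpx2 (244), and aged 5 for Kif11 (217).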

How the results depend on the processing

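With age only, 0 genes of the list were called under every alternative run except DESeq2, which called 2, and the median log2 fold change stayed between −0.50 and −0.37. The count was 0 on leaving out any library, with medians of −0.48 to −0.37. With library set fitted the count was 2 (217 of all 16576 genes tested were called lower). It was 0 with upper quartile scaling (0 of 16576) or library totals (39 of 16576), and 4 without hemoglobin and immunoglobulin genes (209 of 16474). The count was 9 without a low-count filter (584 of 30357), 17 with DESeq2 (908 of 16576) and 4 with limma-voom (298 of 16576). For DESeq2 that base is all genes entered, whether or not it gave them an adjusted p. On leaving out each library it ranged from 0 to 23 (0 to 1054 over all genes), and the cause was not tested. The median was −0.52 to −0.37 on leaving out each library and −0.33 with library totals. Of other mitotic genes, 0 were called with age only and 6 with library set fitted. Genes whose ages do not overlap were 5, 0 with library totals and 35 within the 6 libraries, where fewer samples are compared. Of the genes followed singly, which leaves out Birc5 and Ube2c, the age-only log2 fold change reversed on leaving out single libraries for Cdk1 (range −0.48 to 0.10) and Ndc80 (−0.33 to 0.13), and 36 to 40 of the 40 genes were below 0 in those fits. With the replicate numbers as a block, the age-only count was 0 (7 of all 16576 genes were called lower). The set-term count was 20 (952 of 16576), with a median of −0.62. Aged 5 is the only library with its number, so the blocked fits take no age difference from it. With library set fitted, number 3 alone spans both sets and goes to the set term. The age difference there rests on numbers 1, 2 and 4, whose aged libraries also differ from the young ones in sex chromosome transcripts. The labels do not say whether the numbers pair the mice. Deviations of same-numbered libraries correlated at 0.456, 0.554, −0.387 and 0.739. Young libraries 2 and 4 correlated best with their own number, and 1 and 3 did not.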
